A study of Mus musculus with 15 samples.

Results

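The step from postnatal day 8 (P8) to postnatal day 14 (P14) in mouse Purkinje cells (PCs) was examined by comparing the 3 P14 samples with the 3 P8 samples. Samples were taken by their time point label, which gave 6 of the 15 samples of the series, and the other 9 samples were taken at P0, P4 and P21. All groups came from C56/BL6 mice, as the labels spell the strain, with no mutation or treatment given, and their labels differ only in age. The study's methods write the strain as C57/BL6 and state that the mice were male. Individual PC soma were cut by laser from parasagittal sections of the cerebellum at both time points, and the RNA of each sample was amplified and sequenced as 1 library. At P0, clusters of PCs were captured instead. The P0 samples enter the choice of genes tested, the scaling of the libraries and the shared estimate of the spread. All 38561 gene identifiers of the count tables were considered, of which 14293 had enough counts to be tested.

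PCs are the output neurons of the cerebellar cortex. Around this stage their dendrites branch across the molecular layer, parallel fibres of granule neurons contact the spines, 1 climbing fibre is retained where several had innervated the soma, and basket and stellate cells form inhibitory contacts. Cerebellins released by granule neurons hold the parallel fibre contact together, and metabotropic glutamate signalling through calcium stores is needed for the removal of surplus climbing fibres.

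Total counts on genes were 4713145 to 5345170 per P8 library and 5479656 to 5929255 per P14 library. Reads that fell in no annotated feature made up 21.5 to 23.4% of the counted total at P8 and 16.7 to 19.0% at P14, so this measure did not overlap between the groups, and its part in the results was not tested. Levels are given as CPM, the counts of a gene relative to the counts of its whole library, with library sizes adjusted by TMM factors, and 3 counts correspond to 0.506 to 0.637 CPM in these 6 libraries before that adjustment. Adjusted p-values are from the quasi-likelihood test of edgeR over all 15 samples with Benjamini-Hochberg adjustment over the 14293 genes, and a gene was called at an adjusted p below 0.05. The samples are described as biological replicates. In bulk RNA, fewer cells of a type and less RNA per cell cannot be told apart.

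A set of 8 genes that mark PCs (Pvalb, Slc1a6, Ppp1r17, Car8, Pcp2, Pcp4, Calb1 and Itpr1) summed to 19720.4 to 22802 CPM at P8 and 35382 to 41264 CPM at P14. Bergmann glia and astrocyte markers were the next highest, with 13 genes summing to 9219 to 12287 CPM at P8 and 8531 to 8809 CPM at P14, or 50.7% and 22.1% of the mean PC sum. Granule neuron markers (14 genes) summed to 783 to 1288 and 757 to 1914 CPM, with Atoh1 at 0 in all 6 libraries, and oligodendrocyte lineage markers (13 genes) to 262 to 403 and 445 to 469.8 CPM. Markers of molecular layer and Golgi interneurons (11 genes) summed to 194 to 276 and 176 to 284 CPM. Vascular and meningeal markers (9 genes) summed to 76.7 to 165 and 74.9 to 119 CPM, microglial markers (6 genes) to 30.0 to 50.1 and 11.2 to 27.8 CPM, and blood and choroid plexus markers (8 genes) to 294 to 526 and 207 to 453 CPM. The PC and oligodendrocyte sums were higher in every P14 library than in any P8 library, and the Bergmann glia and microglial sums lower. Single abundant genes weigh heavily in such sums. Fabp7, a Bergmann glia marker, alone averaged 4662 CPM at P8 and 1107 CPM at P14. By log2 fold change, 8 of the 13 Bergmann glia and astrocyte markers were positive and 5 negative. Of the 11 tested oligodendrocyte markers 6 were positive and 5 negative.

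**Figure D1:**
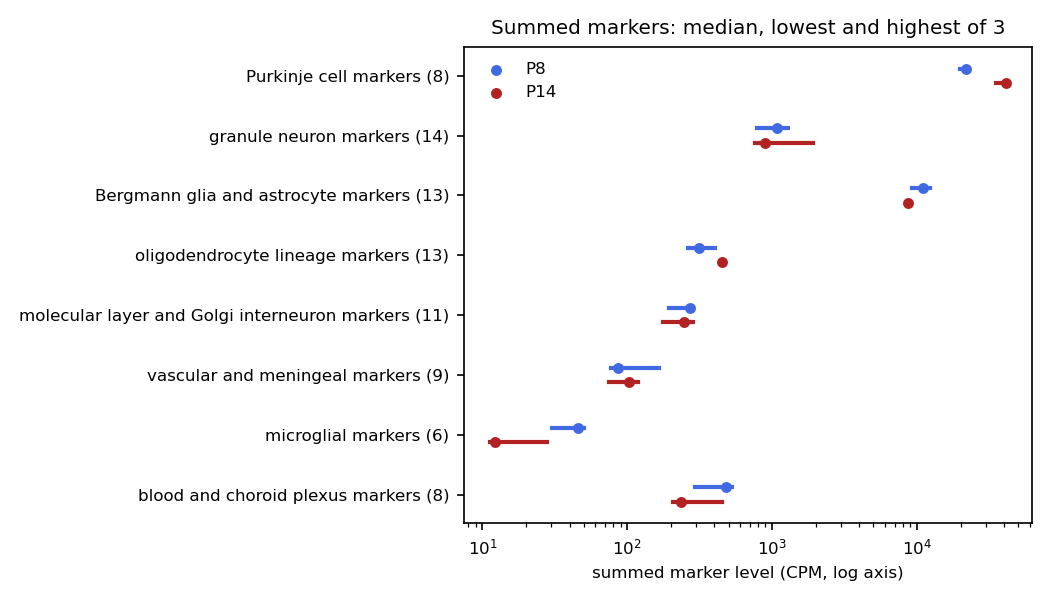
Summed level of the markers of each cell type (x axis, CPM on a log scale) at P8 (blue) and P14 (red), with the number of markers in parentheses. Points are the median and lines the lowest to the highest of 3 libraries. PC markers were highest and stood higher at P14, followed by Bergmann glia and astrocyte markers.

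Between P8 and P14, 185 genes rose and 197 fell, which was 1.29% and 1.38% of the genes tested. These shares are the background for the counts of called list members below. The median log2 fold change was 1.39 among the rising and -1.41 among the falling genes, and 142 and 155 of them moved by over 2-fold. Protein-coding genes made up 182 of the rising genes and 174 of the falling ones, and 16 of the falling genes were processed pseudogenes, whose reads are hard to separate from those of their parent genes. All 382 called genes had groups that did not overlap. Such non-overlap was common, with 12.8% of the genes tested higher and 12.7% lower in every P14 library than in any P8 library, and the median log2 fold change over all genes was -0.04. The counts fell to between 89 and 124 rising and 74 and 119 falling genes when any 1 of the 6 libraries was left out, lowest without P14 replicate 3, and 77 rising and 62 falling genes kept their call whichever library was absent.

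**Figure D2:**
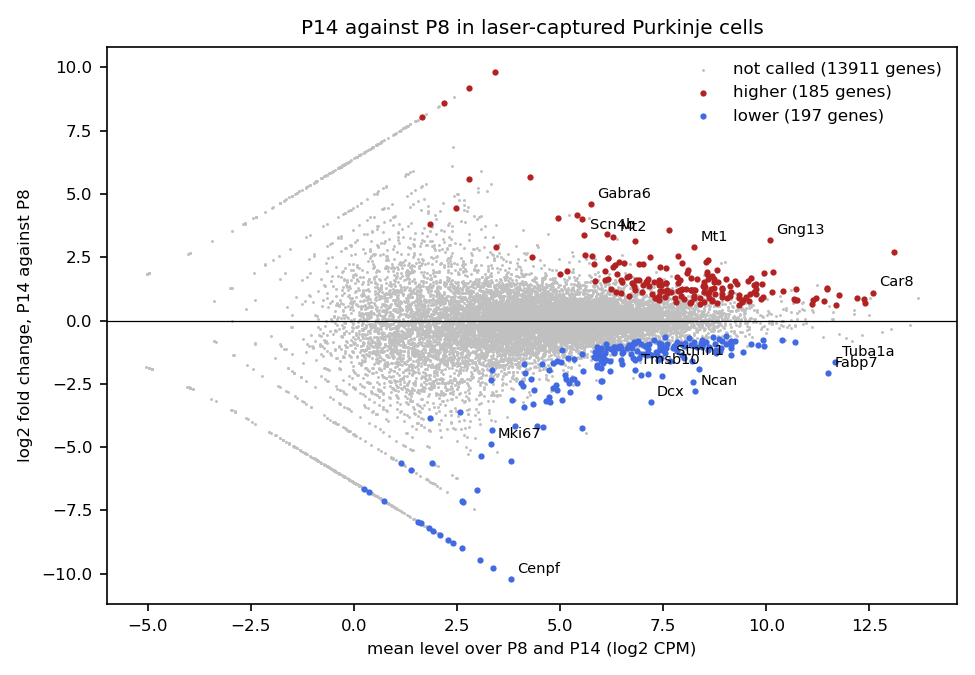
Log2 fold change of P14 against P8 (y axis) against the mean level over both time points (x axis, log2 CPM) for the tested genes with a count at P8 or P14. Genes called higher are red (185), genes called lower blue (197) and the others grey, and the outer diagonal lines are genes with no count at 1 of the time points, whose fitted fold change is no bound.

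The rising genes with the smallest adjusted p were Mt1, Gng13, Anks1b, Mt2, Cystm1 and Gabbr2. Mt1 and Mt2 encode metallothioneins, small cysteine-rich proteins that bind zinc and copper, and lie side by side at chr8:94179082-94180327 and chr8:94172664-94173568 (GRCm38). Mt1 was at 72.4, 64.1 and 79.8 CPM at P8 and 523, 677 and 409 CPM at P14. Every P14 library was several times above every P8 library (log2 fold change 2.89 ± 0.23 (SE), adjusted p = 1.1e-05). Mt2 was lower throughout, at 10.9, 13.5 and 18.6 CPM at P8 and 139, 165 and 119 CPM at P14, and again the groups were far apart (log2 fold change 3.29 ± 0.38 (SE), adjusted p = 0.000312). Mt3, the metallothionein of brain, was at 394 and 403 CPM on average at P8 and P14 and was not called (log2 fold change 0.03 ± 0.22 (SE), adjusted p = 0.988). It was added after its values were seen. Both Mt1 and Mt2 were called in each of the 6 leave-one-out fits. The libraries also held glial markers, and which of the captured cells carried Mt1 and Mt2 was not tested. Mt2 shares exon bases with an annotated gene on the opposite strand, and the strand setting of the counting is not given in the sources used here.

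The promoters of Mt1 and Mt2 are shown because the genes are neighbours and rose together. Metallothionein genes are known to be switched on by a metal-sensing factor that binds metal response elements. The sequences are RefSeq windows of 300 bases around the annotated start on GRCm38.p6, at chr8:94178839-94179138, plus strand for Mt1 and chr8:94172368-94172667, plus strand for Mt2, and capitals mark matches on either strand to the cores TGCACNC and TGCGCNC, where N is any base.
Mt1: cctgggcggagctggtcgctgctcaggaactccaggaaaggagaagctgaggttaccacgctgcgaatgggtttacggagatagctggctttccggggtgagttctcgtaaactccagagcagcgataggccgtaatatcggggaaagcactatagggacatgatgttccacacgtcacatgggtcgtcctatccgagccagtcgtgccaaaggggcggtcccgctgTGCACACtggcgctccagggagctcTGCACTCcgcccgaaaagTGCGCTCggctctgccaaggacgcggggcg
Mt2: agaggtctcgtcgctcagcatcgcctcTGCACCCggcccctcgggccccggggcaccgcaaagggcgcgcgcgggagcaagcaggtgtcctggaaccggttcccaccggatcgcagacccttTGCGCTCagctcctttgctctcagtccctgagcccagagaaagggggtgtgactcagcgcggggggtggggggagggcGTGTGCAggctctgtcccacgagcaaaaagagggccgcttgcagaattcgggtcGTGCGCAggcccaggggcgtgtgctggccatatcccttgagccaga
Mt1 held 2 matches to TGCACNC and 1 to TGCGCNC, and Mt2 held 2 matches to each. Among all 32851 promoter windows, 12.6% held the first core, 15.4% the second and 25.7% either. A match describes the letters of the window and is not a bound site.

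Gng13 encodes a gamma subunit of heterotrimeric G proteins, at chr17:25717171-25719406. It was at 205, 223 and 219 CPM at P8 and 1503, 2166 and 2207 CPM at P14. All P8 libraries lay close together and far below P14 (log2 fold change 3.18 ± 0.31 (SE), adjusted p = 6.73e-05). Some of its exon bases lie opposite those of Chtf18. Anks1b, a postsynaptic scaffold also known as AIDA-1, rose from 158 ± 27.4 CPM at P8 to 591 ± 103 CPM at P14 (mean ± SD, n = 3 each; log2 fold change 1.90 ± 0.21 (SE), adjusted p = 0.00026). Cystm1, a small cysteine-rich membrane protein, rose by 1.68 on the log2 scale (adjusted p = 0.000387). These 3 genes were called in each of the 6 leave-one-out fits.

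Among 12 PC identity genes, 4 rose and none fell, and the median log2 fold change was 1.06. All 12 had a positive fold change and 10 had groups that did not overlap, with P14 higher, against 12.8% of all genes tested. The count was 3 without P14 replicate 2 and 2 without any other of the 6 libraries. Car8, a carbonic anhydrase relative that binds the IP3 receptor, rose from 3872 ± 266 CPM at P8 to 8335 ± 985 CPM at P14 (mean ± SD, n = 3 each; log2 fold change 1.11 ± 0.15 (SE), adjusted p = 0.000873), and Itpr1, the IP3 receptor of the PC calcium store, from 2290.0 ± 57.9 CPM at P8 to 4601 ± 899 CPM at P14 (log2 fold change 1.01 ± 0.15 (SE), adjusted p = 0.00136). Both were called in each of the 6 leave-one-out fits. Pcp4, a peptide that tunes calcium signalling, also rose (log2 fold change 0.90 ± 0.22 (SE), adjusted p = 0.034) but lost its call whichever of the 6 libraries was left out (highest adjusted p = 0.12). Pcp4 shares exon bases with Igsf5. Calb1, the calcium buffer calbindin, averaged 4093 and 7609 CPM at P8 and P14 and just missed the threshold (adjusted p = 0.0508), and Pcp2 was at 5307 and 6128 CPM (log2 fold change 0.21 ± 0.33 (SE), adjusted p = 0.892).

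The list for metabotropic glutamate signalling held the highest median of the 29 lists. Of its 19 genes 7 rose, none fell, and the median log2 fold change was 1.11 against -0.04 over all genes. In 15 of the 19 the groups did not overlap, with P14 higher, against 12.8% of all genes tested. Besides Gng13, Car8 and Itpr1, the rising members included Dgkz, a kinase that removes diacylglycerol (log2 fold change 1.66 ± 0.29 (SE), adjusted p = 0.0054), Rgs7bp, an anchor for regulators of G protein signalling (log2 fold change 1.12 ± 0.23 (SE), adjusted p = 0.0124), and Homer3, a scaffold that links glutamate receptors to the IP3 receptor (log2 fold change 1.51 ± 0.36 (SE), adjusted p = 0.0343). Rgs7bp was named after its values were seen and lost its call without P8 replicate 2, P8 replicate 3 or P14 replicate 1 (highest adjusted p = 0.0736). Dgkz was at 226, 256 and 270.2 CPM at P8 and 885, 722 and 768 CPM at P14, and every P14 library was far above every P8 library. Leaving out 1 library kept 5 or 6 of the 7 calls. The call of Homer3, whose exons overlap those of Ddx49 on the opposite strand, was lost whichever library was left out (highest adjusted p = 0.133).

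Of 23 tested genes for calcium stores, pumps and buffers 5 rose and none fell, with a median of 0.89. Atp2a2, the pump that refills the endoplasmic reticulum, was at 804, 844 and 851 CPM at P8 and 2023, 1439 and 2132 CPM at P14. The groups did not overlap (log2 fold change 1.16 ± 0.18 (SE), adjusted p = 0.00199). Atp2b2, the calcium pump of the plasma membrane that PCs use most, rose by 0.78 on the log2 scale (adjusted p = 0.0278, named after its values were seen) and lost its call without P8 replicate 1, P8 replicate 2, P8 replicate 3, P14 replicate 1 or P14 replicate 3 (highest adjusted p = 0.159). Another riser was Calb2, or calretinin, which granule neurons rather than PCs are known for. Of the voltage-gated calcium channel genes, 1 of 15 rose and none fell, and the median was -0.50. The riser was Cacna1g, the T-type channel, at 201, 197 and 226 CPM at P8 and 556, 476 and 526 CPM at P14 (log2 fold change 1.32 ± 0.23 (SE), adjusted p = 0.0054). Cacna1a, the P/Q-type channel that carries most PC calcium current, averaged 91.3 and 119 CPM and was not called (adjusted p = 0.744).

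**Figure D3:**
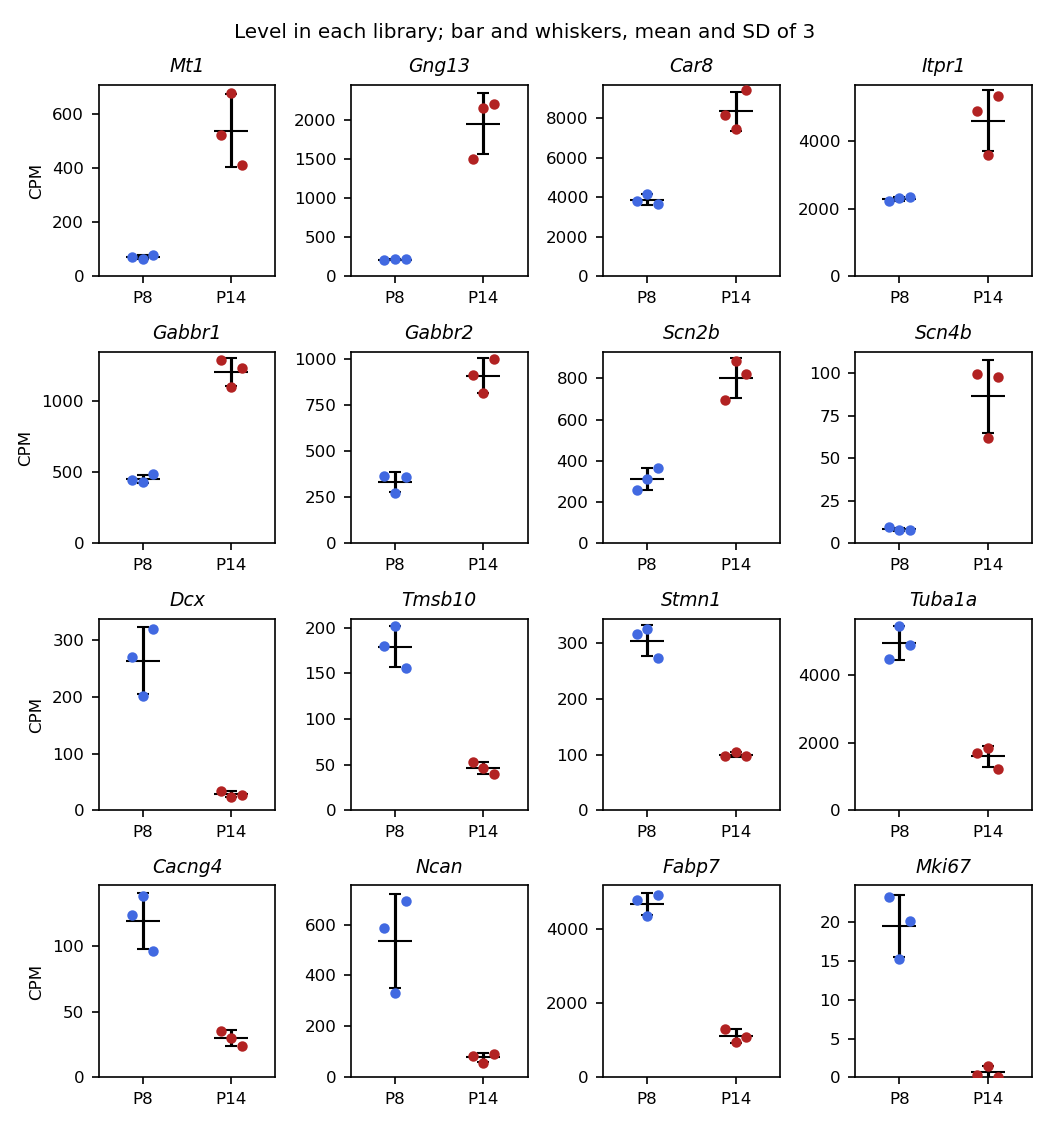
Level of 16 genes (y axis, CPM) in each of the 3 P8 libraries (blue) and 3 P14 libraries (red), with the mean and SD as bar and whiskers. In every panel the 2 groups are apart, with P14 higher from Mt1 to Scn4b and lower from Dcx to Mki67.

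Of 18 tested organisers of the parallel fibre synapse 2 rose (1 whichever library was left out), among them Cbln3, none fell and the median was -0.12. The neuroligins Nlgn1 and Nlgn3 and the Lrrtm genes were not called. Cbln3, which partners cerebellin 1 in granule neurons, was at 2.22, 4.39 and 9.4 CPM at P8 and 44.5, 135 and 82.4 CPM at P14 (log2 fold change 4.02 ± 0.68 (SE), adjusted p = 0.0054). It was highest in P14 replicate 2. Of the 21 tested genes of climbing fibre refinement 2 rose (0 whichever library was left out), among them Nlgn2, with a median of 0.34. C1ql1, which is made by climbing fibres, was near the floor (1.71 and 1.4 CPM). Igf1 averaged 398 and 160.2 CPM and missed the threshold (adjusted p = 0.0522).

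Of 14 tested AMPA receptor genes none rose and 1 fell, with a median of 0.08. The pore subunits Gria1 to Gria4 had log2 fold changes of 0.22, 0.25, 0.86 and 0.22, none of them called. The gene that fell was Cacng4, an auxiliary subunit abundant in immature neurons, at 123, 137 and 95.8 CPM at P8 and 35.5, 30.1 and 24 CPM at P14. Every P14 library was far below every P8 library (log2 fold change -1.99 ± 0.34 (SE), adjusted p = 0.0047). Cacng2, or stargazin, was at 540.3 and 449 CPM (log2 fold change -0.27 ± 0.24 (SE), adjusted p = 0.744). Among 25 postsynaptic scaffolds 3 rose and none fell, with a median of 0.36. These were Homer3, Baiap2, which shapes the actin of spines (log2 fold change 1.53 ± 0.38 (SE), adjusted p = 0.044), and Camk2a, a subunit of the calcium kinase of spines (log2 fold change 1.60 ± 0.41 (SE), adjusted p = 0.0494). None of the 3 was called when 1 library was left out, whichever it was (highest adjusted p = 0.133, 0.155 and 0.239), and Baiap2 and Camk2a were not called with upper quartile scaling either. Baiap2 also lost its call with a term for the replicate number.

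Genes of the inhibitory synapse rose in part. Of 21 genes for GABA-A receptors and their anchors 3 rose and none fell, with a median of 0.62. Nlgn2, the neuroligin of inhibitory contacts, was among them (log2 fold change 0.86 ± 0.20 (SE), adjusted p = 0.0263) and lost its call whichever of the 6 libraries was left out (highest adjusted p = 0.121). The list held 1 call in each of these fits. The chloride exporter Slc12a5 was at 185 and 365 CPM and was not called (log2 fold change 0.98 ± 0.33 (SE), adjusted p = 0.149).

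Both genes of the GABA-B receptor rose. Gabbr2 was at 366, 273 and 359.7 CPM at P8 and 914, 814 and 1001 CPM at P14 (log2 fold change 1.45 ± 0.18 (SE), adjusted p = 0.00064). Gabbr1, named after its values were seen, was at 442, 429.6 and 484 CPM at P8 and 1284, 1094 and 1229 CPM at P14 (log2 fold change 1.41 ± 0.20 (SE), adjusted p = 0.00114). The receptor works as a dimer of the 2 proteins. Of 24 genes for GABA synthesis and release 1 rose and 1 fell, with a median of 0.35. Syt7, a slow calcium sensor of release, rose (log2 fold change 1.69 ± 0.24 (SE), adjusted p = 0.00114). Cplx2, a complexin, fell by 1.57 on the log2 scale (adjusted p = 0.0331) and lost its call whichever of the 6 libraries was left out (highest adjusted p = 0.179). The synthesis enzyme Gad1 was at 564 and 781 CPM (log2 fold change 0.47 ± 0.22 (SE), adjusted p = 0.372).

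Of 11 sodium channel genes 2 rose, both beta subunits, and none fell, with a median of 0.37. Scn4b, which supports resurgent sodium current, was at 9.47, 7.63 and 7.78 CPM at P8 and 99.6, 61.9 and 98.1 CPM at P14. It was low at P8 but above the 3-count floor (47, 40 and 43 counts), and far higher in every P14 library (log2 fold change 3.38 ± 0.40 (SE), adjusted p = 0.000656). Scn2b rose by 1.36 (adjusted p = 0.00114). The pore subunits Scn1a and Scn8a had log2 fold changes of 0.97 and 0.59 and were not called (adjusted p = 0.0979 and 0.321). Of 26 tested potassium and HCN channel genes 3 rose and none fell, with a median of 0.83. Kcnip4, a partner of Kv4 channels, was at 98.4, 121 and 79 CPM at P8 and 263, 236 and 336 CPM at P14 (log2 fold change 1.48 ± 0.28 (SE), adjusted p = 0.00717). Kcng4, a silent subunit, was at 91.5, 39.3 and 86.8 CPM at P8 and 528, 189 and 209 CPM at P14, with P14 replicate 1 well above the others, and lost its call without P8 replicate 2 or P14 replicate 1 (highest adjusted p = 0.0695).

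The 12 largest rises among protein-coding genes with at least 10 CPM began with 2 genes that had no count at P8. Against a floor of 3 counts over the P8 group, Eva1a was at least 112-fold higher at P14 and Ttpa, the vitamin E transfer protein, at least 72.4-fold higher. Clic6, Mobp, Gabra6, Slc19a2, Cpeb1, Sgpp2, Cbln3, Fam107a, Calb2 and Scn4b followed, with log2 fold changes from 5.67 down to 3.38. Slc19a2, a thiamine transporter, lost its call without P8 replicate 2, P8 replicate 3, P14 replicate 1, P14 replicate 2 or P14 replicate 3 (highest adjusted p = 0.171), and also with no filter on low counts and in a fit on the 6 samples alone. Sgpp2, a sphingosine phosphate phosphatase, lost its call without P8 replicate 2 or P8 replicate 3 (highest adjusted p = 0.0558). Cpeb1, which controls translation of stored mRNA at synapses, was at 6.25, 4.77 and 2.35 CPM at P8 and 58.3, 84.5 and 99.8 CPM at P14. Every P14 library was many times above every P8 library (log2 fold change 4.18 ± 0.66 (SE), adjusted p = 0.00221). Fam107a was at 33.9, 23.8 and 36 CPM at P8 and 325, 358 and 421 CPM at P14 (log2 fold change 3.56 ± 0.74 (SE), adjusted p = 0.0142) and lost its call without P8 replicate 1, P8 replicate 2, P8 replicate 3 or P14 replicate 3 (highest adjusted p = 0.0849), and also in DESeq2.

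Of these 12 genes, 4 stood on the marker lists of other cells. Gabra6, the alpha subunit of granule neuron receptors, was at 4.44, 0 and 8.32 CPM at P8 and 65.7, 160.1 and 82.5 CPM at P14 (log2 fold change 4.58 ± 0.99 (SE), adjusted p = 0.0194). Calb2 was at 16.7, 5.72 and 13.7 CPM at P8 and 63.5, 220.1 and 101 CPM at P14 (log2 fold change 3.41 ± 0.64 (SE), adjusted p = 0.00768). For Gabra6, Calb2 and Cbln3 the highest level was in P14 replicate 2, the library with the highest granule neuron sum. Of the 13 tested granule neuron markers these 3 rose and none fell, with a median of 0.86, and the remaining 10 went in both directions: Neurod1 averaged 549.9 and 363 CPM and Slc17a7, the vesicular transporter of parallel fibres, 8.65 and 24.1 CPM, neither called. Gabra6 lost its call without P8 replicate 1, P14 replicate 2 or P14 replicate 3 (highest adjusted p = 0.0906). Mobp, a myelin protein, was at 0.806, 0 and 0 CPM at P8 and 9.02, 23.4 and 8.25 CPM at P14 (log2 fold change 5.57 ± 1.29 (SE), adjusted p = 0.0338) and lost its call without P8 replicate 2, P8 replicate 3, P14 replicate 1, P14 replicate 2 or P14 replicate 3 (highest adjusted p = 0.124). It was the 1 called gene of 11 tested oligodendrocyte markers, whose median was 0.12. The part of these cells in the rises was not tested.

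Of 13 Bergmann glia and astrocyte markers 1 rose and 1 fell, with a median of 0.20. Fabp7, the fatty acid binding protein of radial and Bergmann glia, was at 4759.6, 4334 and 4893 CPM at P8 and 1300.4, 941 and 1079.8 CPM at P14. The groups were far apart (log2 fold change -2.07 ± 0.25 (SE), adjusted p = 0.000485). Slc1a3, the glial glutamate transporter, averaged 2388 and 3522 CPM and was not called (adjusted p = 0.199). Sept4, a septin, rose by 1.23 on the log2 scale (adjusted p = 0.021) and lost its call without P8 replicate 1, P8 replicate 2, P8 replicate 3, P14 replicate 2 or P14 replicate 3 (highest adjusted p = 0.105). No gene was called among 10 markers of interneurons (median 0.12), 7 vascular (-0.61), 5 microglial (-0.72) and 6 blood and choroid plexus markers (-0.44). By edgeR these lists held 0 calls and 1 gene at an unadjusted p below 0.05, a microglial one. DESeq2 and limma-voom called none of them either, and an edgeR fit on the 6 samples alone called 1 microglial gene.

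Of 23 genes for the cytoskeleton of growing neurites 14 fell and none rose, where 1.38% of all genes tested fell. The median log2 fold change was -0.97. Dcx, doublecortin, a microtubule-associated protein of migrating and extending neurons at chrX:143855842-143933311, was at 270.3, 201 and 319 CPM at P8 and 34.1, 23.6 and 27.6 CPM at P14. Every P14 library was a small fraction of any P8 library (log2 fold change -3.21 ± 0.25 (SE), adjusted p = 1.1e-05). Tmsb10, an actin-binding thymosin, was at 180.2, 202 and 156 CPM at P8 and 53, 46.4 and 39.7 CPM at P14 (log2 fold change -1.95 ± 0.19 (SE), adjusted p = 6.73e-05). Stmn1, which destabilises microtubules, was at 316, 326 and 273 CPM at P8 and 97.4, 105 and 96.9 CPM at P14 (log2 fold change -1.61 ± 0.21 (SE), adjusted p = 0.000733). Tuba1a, the alpha-tubulin of developing neurons, fell from 4947 ± 496 CPM at P8 to 1597 ± 322 CPM at P14 (log2 fold change -1.63 ± 0.23 (SE), adjusted p = 0.00117). These genes were called in each of the 6 leave-one-out fits, as were 5 of the 14 in all, and 10 were called without P14 replicate 1, 7 without P8 replicate 2 or P14 replicate 2, 6 without P8 replicate 3 and 5 without P8 replicate 1 or P14 replicate 3. Tmsb10 and Tuba1a have closely similar copies in the genome, and only uniquely placed reads were counted. Members that were not called included Stmn3 (0.34), Tubb3 (-0.29), Ina (-0.09) and Gap43, the growth cone protein (-0.90, adjusted p = 0.337). Of 20 genes of the mature cytoskeleton and axon initial segment 1 rose and none fell, with a median of 0.32. It was Tuba4a (log2 fold change 0.96 ± 0.23 (SE), adjusted p = 0.0319), which lost its call without P8 replicate 1, P8 replicate 2, P8 replicate 3 or P14 replicate 1 (highest adjusted p = 0.205).

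**Figure D4:**
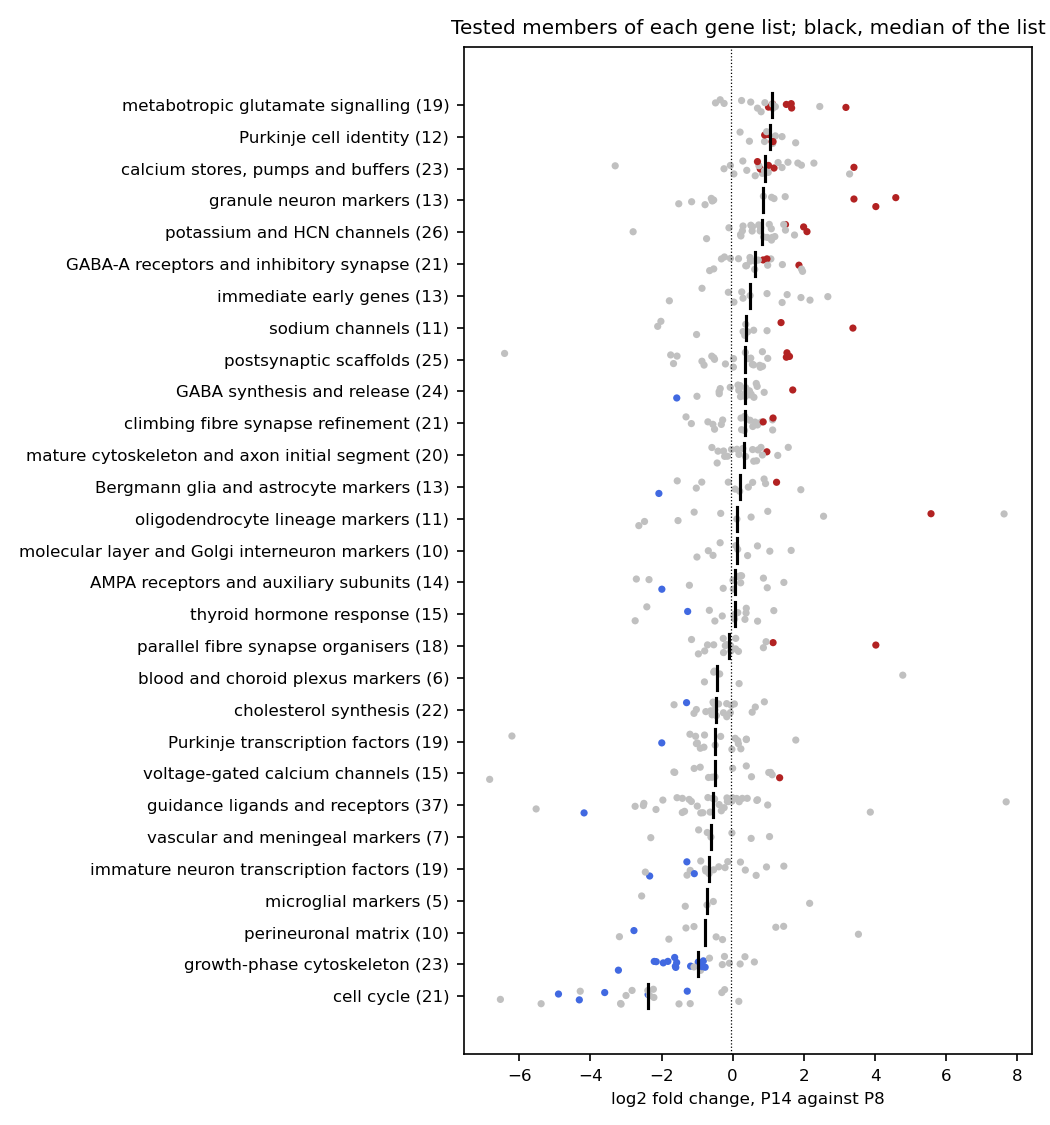
Log2 fold change of P14 against P8 (x axis) for every tested member of the 29 lists, with the number tested in parentheses. Red points were called higher, blue lower and grey not called, the black bar is the median of a list and the dotted line the median of all genes tested. Metabotropic glutamate signalling had the highest median (1.11) and cell cycle the lowest (-2.38).

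Transcription factors of immature neurons fell in part. Of 19 tested 3 fell and none rose, with a median of -0.67. Nfia and Nfib, nuclear factor I proteins, fell by 1.08 and 1.29 on the log2 scale (adjusted p = 0.0391 and 0.0256), and Sox4 was at 15.9, 14.1 and 19.9 CPM at P8 and 2.76, 4.02 and 3.07 CPM at P14 (log2 fold change -2.33 ± 0.48 (SE), adjusted p = 0.0139). None of the 3 was called in all 6 leave-one-out fits: Nfia lost its call whichever of the 6 libraries was left out (highest adjusted p = 0.184), Nfib lost its call without P8 replicate 1, P8 replicate 3, P14 replicate 1 or P14 replicate 3 (highest adjusted p = 0.155), and Sox4 lost its call without P8 replicate 3, P14 replicate 1 or P14 replicate 3 (highest adjusted p = 0.0831), and also in limma-voom and in a fit on the 6 samples alone. Of 19 PC transcription factors 1 fell and none rose, with a median of -0.49. Ebf2 was at 85.5, 68.1 and 72.5 CPM at P8 and 39.4, 7.28 and 9.98 CPM at P14, and P14 replicate 1 stood above the other P14 libraries (log2 fold change -1.99 ± 0.48 (SE), adjusted p = 0.0346). It lost its call without P8 replicate 1, P8 replicate 2, P8 replicate 3, P14 replicate 2 or P14 replicate 3 (highest adjusted p = 0.179), and also in limma-voom and in a fit on the 6 samples alone. The fall did not last, as Ebf2 averaged 140.4 CPM at P21 and was called higher there than at P14 (log2 fold change 2.89, adjusted p = 0.0139 by edgeR). Rora, which PCs need to survive and mature, averaged 1542 and 2009 CPM and was not called (log2 fold change 0.38 ± 0.13 (SE), adjusted p = 0.154).

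Of 10 tested perineuronal matrix genes 1 fell and none rose, where 1.38% of all genes tested fell, with a median of -0.78. Ncan, the juvenile proteoglycan neurocan, was at 584, 332 and 691 CPM at P8 and 84.5, 57.8 and 92.3 CPM at P14 (log2 fold change -2.78 ± 0.37 (SE), adjusted p = 0.000733). The groups were far apart. Of 37 guidance genes 1 fell and none rose, with a median of -0.56. Efnb3, an ephrin, was at 42.1, 15.8 and 27.3 CPM at P8 and 4.6, 0 and 0 CPM at P14 (log2 fold change -4.18 ± 0.98 (SE), adjusted p = 0.0299) and lost its call without P8 replicate 1, P8 replicate 3, P14 replicate 2 or P14 replicate 3 (highest adjusted p = 0.106), and also in a fit on the 6 samples alone. In 11 of the 37 guidance genes every P14 library was below every P8 library and in 5 above, where 12.7% and 12.8% of all genes tested were so. Of 15 thyroid hormone genes 1 fell, with a median of 0.05. It was Thra, the main thyroid hormone receptor of brain, at 230.0, 206 and 158 CPM at P8 and 79.5, 86 and 81.6 CPM at P14 (log2 fold change -1.27 ± 0.21 (SE), adjusted p = 0.00369), and its exons overlap those of Nr1d1 on the opposite strand. Of 22 genes of cholesterol synthesis 1 fell, Hmgcs1, an early enzyme (log2 fold change -1.30 ± 0.24 (SE), adjusted p = 0.00717), with a median of -0.48. Of 13 tested immediate early genes 0 were called by edgeR, DESeq2 or limma-voom and 0 had an unadjusted p below 0.05 in edgeR (median 0.49).

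Cell cycle genes had the lowest median of all lists. Of 21 genes 5 fell and none rose, with a median of -2.38, and 13 had all P14 libraries below all P8 libraries. Among all genes tested, 1.38% fell and 12.7% had all P14 libraries below all P8 libraries. PCs have left the cycle before birth. Mki67, a marker of dividing cells, was at 23.2, 15.3 and 20.1 CPM at P8 and 0.368, 1.53 and 0 CPM at P14 (log2 fold change -4.90 ± 0.73 (SE), adjusted p = 0.00153). Top2a, a topoisomerase of mitosis, was at 22, 19.5 and 16.6 CPM at P8 and 0, 0 and 2.88 CPM at P14 (log2 fold change -4.31 ± 0.88 (SE), adjusted p = 0.0126). Ccnd2, a cyclin that granule neuron progenitors use, was at 50.4, 151 and 119 CPM at P8 and 32.2, 18.8 and 10.6 CPM at P14 (log2 fold change -2.38 ± 0.42 (SE), adjusted p = 0.0056). These 3 were called in each of the 6 leave-one-out fits. Mcm6 fell by 3.60 (adjusted p = 0.0206) and Cdk4 by 1.28 (adjusted p = 0.0338, named after its values were seen) on the log2 scale. Mcm6 lost its call without P8 replicate 1, P14 replicate 1 or P14 replicate 2 (highest adjusted p = 0.114), and also in limma-voom and in a fit on the 6 samples alone, and Cdk4 lost its call without P8 replicate 2, P8 replicate 3, P14 replicate 1, P14 replicate 2 or P14 replicate 3 (highest adjusted p = 0.149). The list held 3 calls without P14 replicate 2. Top2a was not called in a fit on the 6 samples alone. Cenpf, a kinetochore protein outside the list, was at 14.9, 29.6 and 40.0 CPM at P8 and 0, 0 and 0 CPM at P14. It was at least 151-fold lower at P14 than at P8 by the 3-count floor (adjusted p = 0.000124).

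The promoters of Cenpf, Mki67 and Top2a are printed because the 3 genes fell together and belong to the group of genes made in G2 and mitosis. Promoters of that group are known for a cell cycle homology region and for CCAAT boxes. The RefSeq windows of 300 bases lie at chr1:189688037-189688336, minus strand (Cenpf), chr7:135716330-135716629, minus strand (Mki67) and chr11:99024140-99024439, minus strand (Top2a) on GRCm38.p6, and capitals mark matches on either strand to TTTGAA and CCAAT.
Cenpf: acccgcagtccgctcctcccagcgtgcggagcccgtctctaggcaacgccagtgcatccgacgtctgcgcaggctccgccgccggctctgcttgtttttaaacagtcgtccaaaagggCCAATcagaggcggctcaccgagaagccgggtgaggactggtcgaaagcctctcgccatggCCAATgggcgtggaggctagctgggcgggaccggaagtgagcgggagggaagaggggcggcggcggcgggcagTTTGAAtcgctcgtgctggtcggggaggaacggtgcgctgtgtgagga
Mki67: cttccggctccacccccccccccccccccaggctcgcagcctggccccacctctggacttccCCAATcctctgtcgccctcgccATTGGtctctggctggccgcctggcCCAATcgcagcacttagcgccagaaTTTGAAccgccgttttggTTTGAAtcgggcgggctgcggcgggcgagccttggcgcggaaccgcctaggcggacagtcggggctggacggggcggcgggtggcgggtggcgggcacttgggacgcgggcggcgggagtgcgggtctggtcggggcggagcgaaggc
Top2a: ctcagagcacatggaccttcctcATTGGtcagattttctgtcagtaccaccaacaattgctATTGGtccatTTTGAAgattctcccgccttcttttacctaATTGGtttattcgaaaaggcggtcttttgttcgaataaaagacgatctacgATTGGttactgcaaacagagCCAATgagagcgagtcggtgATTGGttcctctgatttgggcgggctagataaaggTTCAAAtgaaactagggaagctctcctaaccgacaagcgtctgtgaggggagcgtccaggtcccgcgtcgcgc
Cenpf held 1 match to TTTGAA and 2 to CCAAT, Mki67 held 2 and 3, and Top2a 2 and 6. TTTGAA occurred in 17.9% of the 32851 windows, CCAAT in 37.4% and either in 48.3%. Matches to such short motifs are common, and none is shown to be bound here.

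The 12 largest falls among protein-coding genes with at least 10 CPM included Cenpf, Fibcd1, Htr1a, Tox3, Pbk, Fam19a2, Rcn3, St8sia2, Pclaf, Mki67 and Top2a. For 5 of the 12 no P14 library held a count. Fibcd1 was at least 88.4-fold lower at P14, Htr1a, a serotonin receptor, at least 66.5-fold and Tox3 at least 56.8-fold. Pbk, a mitotic kinase with 1 count over the P14 libraries, was lower by 199.6-fold (95% counting interval 35.4 to 7925), Fam19a2 by 189.6-fold (95% counting interval 33.6 to 7527) and Rcn3 by 125-fold (95% counting interval 34.1 to 1034). St8sia2, which makes the polysialic acid of growing neurons, was at 30.6, 20.03 and 32 CPM at P8 and 0.92, 0.383 and 0.384 CPM at P14 (log2 fold change -5.55 ± 0.96 (SE), adjusted p = 0.00465) and was not called in limma-voom. Pclaf was at 26.6, 8.58 and 14.5 CPM at P8 and 0, 0 and 1.15 CPM at P14 (log2 fold change -5.36 ± 1.28 (SE), adjusted p = 0.0338) and lost its call without P8 replicate 1, P8 replicate 2, P8 replicate 3, P14 replicate 1 or P14 replicate 2 (highest adjusted p = 0.148), and also in a fit without P0. Fibcd1 lost its call without P14 replicate 1, P14 replicate 2 or P14 replicate 3 (highest adjusted p = 0.0733), and Tox3 lost its call without P8 replicate 2, P8 replicate 3, P14 replicate 1, P14 replicate 2 or P14 replicate 3 (highest adjusted p = 0.105), and also in limma-voom. Htr1a lost its call whichever of the 6 libraries was left out (highest adjusted p = 0.17), Fam19a2 lost its call without P14 replicate 3 (highest adjusted p = 0.0548), and Rcn3 lost its call without P8 replicate 2, P14 replicate 1 or P14 replicate 3 (highest adjusted p = 0.12).

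The falling genes with the smallest adjusted p were Dcx, Tmsb10, Cenpf, ENSMUSG00000050347, Fabp3 and Rps19. ENSMUSG00000050347 has no entry in the annotation used and fell by 2.12 on the log2 scale (adjusted p = 0.000124). Fabp3, a fatty acid binding protein, was at 426, 614 and 521 CPM at P8 and 170.4, 132 and 105 CPM at P14 (log2 fold change -1.94 ± 0.22 (SE), adjusted p = 0.00026), and its exons overlap genes on the opposite strand. Rps19, a protein of the small ribosomal subunit, was at 339, 382 and 355 CPM at P8 and 147, 142 and 134 CPM at P14 (log2 fold change -1.35 ± 0.16 (SE), adjusted p = 0.000387). It was not alone: of 75 tested genes for cytosolic ribosomal proteins 36 fell and none rose, with a median of -0.87. In 71 of the 75 every P14 library lay below every P8 library, against 12.7% of all genes tested. This group was chosen after its values were seen, and its members share reads with many processed pseudogenes. Without P14 replicate 3 the count was 11, without P8 replicate 2 it was 15, and without P14 replicate 1 or 2 it was 23.

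The step was next set against its neighbours, which share the P8 or the P14 samples. The steps span different numbers of days, and the contrasts compare total change, not change per day. Of the 185 rising genes 144 had a positive P4 to P8 change. In that step 57 of the rising genes were called higher and 1 lower, where 126 and 36 of all 14293 genes tested were called so. Of the 197 falling genes 169 had a negative P4 to P8 change, with 12 called lower. From P14 to P21 the sign was the same for 142 rising and 142 falling genes. In that step 3 of the rising genes were called higher and 1 lower. Of the falling genes 19 were called lower and 1, Ebf2, higher. Over all genes tested 9 were called higher and 38 lower in that step. The P8 to P14 change differed from the P4 to P8 change in 9 genes by a contrast of the 2 steps in edgeR, or 0.063% of the genes tested, and 1009 genes had an unadjusted p below 0.05. It differed from the P14 to P21 change in none by edgeR, with 762 genes at an unadjusted p below 0.05 and 31 called by limma-voom.

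Mt1 and Mt2 rose after P8 and had no called change from P4 to P8. Mt1 was 95.8 ± 8.75 CPM at P4, 72.1 ± 7.83 CPM at P8, 536 ± 134 CPM at P14 and 1706 ± 155 CPM at P21 (mean ± SD, n = 3 each), and its steps differed by 3.30 ± 0.41 (SE), adjusted p = 0.00388. For Mt2 the difference was 3.96 ± 0.67 (SE), adjusted p = 0.0357. Fabp3 was at 461 ± 77.2 CPM at P4 and 520.5 ± 94.4 CPM at P8 and then fell to 136 ± 32.7 CPM at P14 (difference -2.11 ± 0.35 (SE), adjusted p = 0.0348). Dcx was at 458 ± 87 CPM at P4 and 264 ± 59.3 CPM at P8, a change that was not called, and fell to 28.4 ± 5.29 CPM at P14 (difference -2.41 ± 0.38 (SE), adjusted p = 0.0239). Ppp1r16b, a phosphatase regulatory subunit, rose before P8 and was not called after it, with 222 ± 65.8 CPM at P4, 1235 ± 139 CPM at P8 and 1164 ± 124 CPM at P14 (difference -2.56 ± 0.40 (SE), adjusted p = 0.0218).

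**Figure D5:**
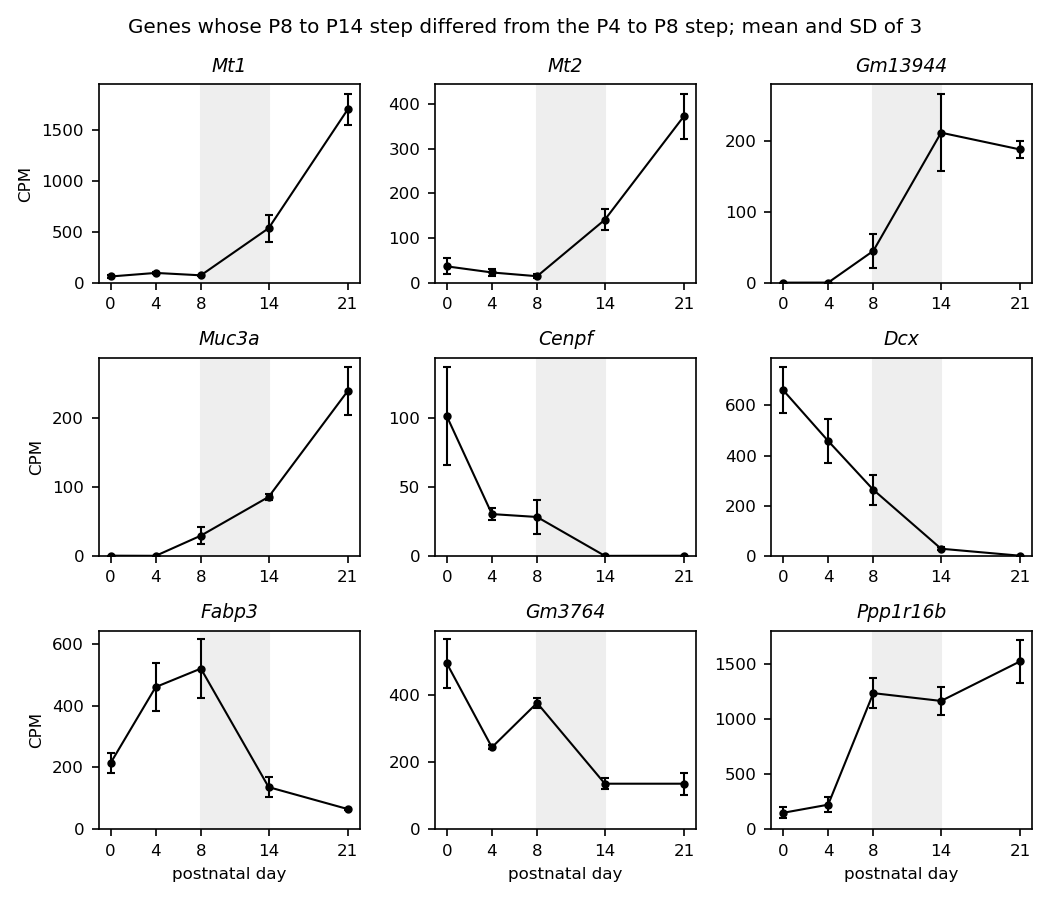
Level (y axis, CPM) over postnatal day (x axis) for the 9 genes whose P8 to P14 change differed from their P4 to P8 change, as mean and SD of 3 libraries, with the P8 to P14 interval shaded. Mt1 and Mt2 rose from P8 onwards, whereas Ppp1r16b rose before P8.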

How the data were processed

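Laser-captured PC RNA was amplified with the SMARTer Ultra Low kit and sequenced by the study. The deposited files hold raw counts per Ensembl gene, made by the authors from uniquely placed reads with HTSeq 0.5.3p9 in intersection-strict mode after trimming with cutadapt 1.2.1 and alignment with GSNAP, per the submitters' processing notes and the study's methods. The build was mm10 (GRCm38.p1), and the annotation release and strand setting are not given in the sources used here. The 5 tally rows that end each file were left out of library sizes and tests, and their largest class made up 16.7 to 23.4% at P8 and P14.

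Genes were filtered with filterByExpr, scaled by TMM and fitted over all 15 samples with the quasi-likelihood test of edgeR 4.0.16 (R 4.3.3), with P14 against P8 as contrast and Benjamini-Hochberg adjustment at 0.05. Differences between steps were contrasts of the same fit. The SE printed beside a log2 value was derived from the test, as the absolute log2 value divided by the square root of its F statistic. DESeq2 1.42.0, limma 3.58.1 (voom), other scalings and filters, fits on fewer samples, a replicate term and leaving out each library were alternatives. The fit was tested on simulated counts. Summaries used Python 3.11.15, pandas 2.3.3, numpy 2.4.6, scipy 1.17.1 and matplotlib 3.10.9. Gene positions are from GENCODE M21, which held 36723 of the 38561 identifiers.

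Named genes were the 12 protein-coding genes with the largest change each way (at least 10 CPM in the higher group, groups not overlapping), the 6 with the smallest p each way, up to 4 called genes per list each way and genes whose steps differed. Others are said to be named after their values were seen, or stand as uncalled members of a list. Results for some genes are not reported here, although counts over lists include them. Members and lists were chosen with earlier results of these data known. Intervals and floors cover counting error only.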

Additional observations from a re-analysis of the deposited data

Results flagged for a closer look

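By a test of the difference itself, a contrast of steps in edgeR with adjustment over all genes, 9 genes changed differently from P8 to P14 than from P4 to P8. Values are the log2 change of the later step minus that of the earlier one, and the steps span different numbers of days. Mt1 gave 3.30 ± 0.41 (SE), adjusted p = 0.00388, and Mt2 3.96 ± 0.67 (SE), adjusted p = 0.0357. Dcx gave -2.41 ± 0.38 (SE), adjusted p = 0.0239, Fabp3 -2.11 ± 0.35 (SE), adjusted p = 0.0348, and the long non-coding RNA Gm3764, which went from 244 ± 6.5 CPM at P4 and 376 ± 14.5 CPM at P8 to 135 ± 16.2 CPM at P14, -2.10 ± 0.32 (SE), adjusted p = 0.0205. Ppp1r16b gave -2.56 ± 0.40 (SE), adjusted p = 0.0218. Cenpf, which had no count at P14, gave -10.10 (adjusted p = 0.00388), a size that depends on the prior count and is no bound. Muc3a and the antisense gene Gm13944 were almost absent at P4, so their differences of -6.98 (adjusted p = 0.0022) and -6.89 (adjusted p = 0.0159) are no bounds either. Muc3a was at 29.3 ± 12.1 CPM at P8 and 85.3 ± 4.62 CPM at P14, and Gm13944 at 44.8 ± 24.5 CPM and 212 ± 54.7 CPM. The number of such genes was 3 without P8 replicate 1, P8 replicate 3, P14 replicate 2 or P14 replicate 3, 5 without P8 replicate 2 and 14 without P14 replicate 1.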

How the results depend on the processing

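No gene called here was called in the opposite direction in any of the 15 alternatives. Against 185 rising and 197 falling genes, DESeq2's Wald test called 398 and 446, the fit on the P8 and P14 samples only 489 and 371, limma-voom 386 and 214, and the fit without P0 308 and 219. Leaving out 1 library gave 89 to 124 and 74 to 119. Genes whose steps differed from P4 to P8 numbered 9, against 16 with no filter, 23 by limma-voom, 14 without P0 and 3 to 14 with 1 library left out. For P14 to P21 the number was 0, against 10 with no filter, 31 by limma-voom, 2 without P0 and 0 to 7 with 1 library left out (7 without P14 replicate 1). The cause of these shifts was not tested. The log2 fold change of Ppp1r16b, P14 against P8, which was not called, was -0.17 without P8 replicate 2 and became 0.00267 without P14 replicate 2. Replicate numbers are shared between time points, but same-numbered libraries did not deviate together (r = -0.0189, -0.0193 and -0.0008 across genes). With the replicate block 166 and 172 genes were called, of which 158 and 162 were shared, and 7 and 0 genes differed between steps. In that fit 9 of the 90 named genes lost their call, among them Baiap2, Cdk4, Fabp5, Htr1a, Mobp, Nfia and Nfib. Of 90 named genes 33 share exon bases with another gene, 26 of them on the opposite strand.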

Other observations

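Further genes and gene groups also changed, all chosen after their values were seen. Among them, Fabp3 and Fabp7 were already described above, and Fabp7 is on the list of Bergmann glia and astrocyte markers. Aldoc, the glycolytic enzyme known as zebrin II that marks stripes of PCs and is also made by astrocytes, rose from 2306 ± 763 CPM at P8 to 15204 ± 3992 CPM at P14 (mean ± SD, n = 3 each; log2 fold change 2.72 ± 0.35 (SE), adjusted p = 0.000693). Itm2b, a membrane protein, rose from 1672 ± 173 CPM at P8 to 4009 ± 230.0 CPM at P14 (log2 fold change 1.26 ± 0.16 (SE), adjusted p = 0.00064). Of 6 tested genes of the sodium-potassium pump 2 rose, among them Atp1b1, the main beta subunit (log2 fold change 0.83 ± 0.19 (SE), adjusted p = 0.0272). Atp1b1 lost its call without P8 replicate 1, P8 replicate 2, P8 replicate 3, P14 replicate 1 or P14 replicate 3 (highest adjusted p = 0.131), and the count of 2 fell to 0 without P8 replicate 1, P8 replicate 2 or P14 replicate 1 and to 1 without P8 replicate 3 or P14 replicate 3. Of 3 neuronal pentraxin genes, whose proteins gather AMPA receptors, Nptx1 (log2 fold change 2.29 ± 0.35 (SE), adjusted p = 0.00184) and the receptor Nptxr (log2 fold change 0.88 ± 0.20 (SE), adjusted p = 0.0279) rose. Nptxr lost its call without P8 replicate 1, P8 replicate 2, P8 replicate 3, P14 replicate 1 or P14 replicate 3 (highest adjusted p = 0.144), and the count of 2 fell to 1 in those fits. Hes3, a transcriptional repressor, rose from 22 ± 10.2 CPM at P8 to 122 ± 19.5 CPM at P14 (log2 fold change 2.47 ± 0.45 (SE), adjusted p = 0.0064).

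Rgs4, a brake on G protein signalling, was at 95.8, 142 and 90.8 CPM at P8 and 6.44, 19.7 and 14.8 CPM at P14 (log2 fold change -3.004 ± 0.39 (SE), adjusted p = 0.000693). All P14 libraries were far below P8. Nnat, or neuronatin, fell from 109 ± 28.9 CPM at P8 to 20.9 ± 3.51 CPM at P14 (log2 fold change -2.39 ± 0.35 (SE), adjusted p = 0.00143). Slc17a8, the vesicular glutamate transporter VGLUT3, was at 8.67, 13.5 and 3.26 CPM at P8 and 0, 0 and 0 CPM at P14 and was at least 44.4-fold lower at P14 by the 3-count floor (adjusted p = 0.00114). All 3 tested fatty acid binding protein genes fell, Fabp3, Fabp7 and Fabp5, the last by 0.64 on the log2 scale (adjusted p = 0.035). Fabp5 lost its call whichever of the 6 libraries was left out (highest adjusted p = 0.201), and also with no filter on low counts and with the replicate block. Of 20 genes for hnRNP proteins, which bind and splice RNA, 3 fell and none rose, with a median of -0.32, and 2 fell whichever library was left out.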
